A study of Mus musculus with 37 samples.

Results

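Astrocytes of the injured hippocampus were compared between mice that had been injured without developing post-traumatic epilepsy (PTE-) and sham mice. The comparison holds 13 of the 37 libraries of the series, namely the 8 labelled as ipsilateral PTE- and the 5 labelled as ipsilateral sham. Every mouse was a wild-type male that the labels call CD31 and the methods CD1, a young adult at surgery. PTE- mice received a controlled cortical impact (CCI), a piston blow to the exposed right parietal cortex, and in the months of video-EEG that followed did not meet the study's definition of epilepsy. Mice used for astrocyte isolation had the deeper impact of the study, called severe, after which the paper describes extensive loss of cortex and hippocampus. How much hippocampus was left on the injured side of each mouse is not given. Sham mice had the craniectomy without the impact and carried the same recording electrodes, so that opened skull and electrodes were common to both groups. Hippocampal astrocytes were taken 4 months post-injury from papain-dissociated tissue on beads against ACSA-2, an epitope of the protein encoded by Atp1b2. Each library is 1 hippocampus of 1 mouse, made with a SMART-Seq V4 kit from little RNA, and the labels number the mice without giving litters or days of preparation. The 4 ipsilateral PTE+ libraries, from injured mice with epilepsy, and the contralateral libraries are used below only for reference.

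Astrocytes clear glutamate and potassium from the space around synapses, store glycogen, pass lactate and cholesterol to neurons and line blood vessels with water channels. After a contusion they become reactive, with more intermediate filament (GFAP and vimentin), complement and matrix proteins, and part of this state can outlast the wound, while the genes of their resting duties are often turned down. Sets called pan-reactive, A1 and A2 were described in mouse astrocytes after inflammation or ischemia and are used here as lists of names only.

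The 13 libraries held between 36925501 and 59846479 counts, and between 9020 and 15545 genes had a count. In 3 of them fewer than 12000 genes were detected: PTE- mice a8_11 (9020) and a8_14 (11271) and sham mouse a9_9 (10886). Of 7357 genes with a median above 1000 counts, these libraries had 2434, 964 and 951 at 3 counts or fewer, and none of the other 10 had more than 90. The number of detected genes did not separate the groups (13488 in PTE- and 14137 in sham on average, exact permutation p = 0.584). All 20 astrocyte markers of the list used here were measured, and Atp1b2 lay between 143.7 and 561.0 TPM (a level corrected for transcript length and library size) in PTE- and between 177.9 and 652.7 in sham libraries. Markers of other cells were present as well, some of them at high levels in single libraries, and are given beside the results they move with. In such libraries fewer cells of a type and less RNA per cell cannot be told apart.

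Differences were tested with edgeR's quasi-likelihood F test on 14903 genes, and are given as log2 fold changes of PTE- minus sham with standard errors (SE). Levels are in CPM, counts scaled to library size and between libraries by TMM. No gene reached an adjusted p under 0.05 (0 of 14903, 0.0%), whereas 236 genes (1.58%) had an unadjusted p under 0.05, 121 of them higher (0.812%) and 115 lower (0.772%) in PTE-. DESeq2 on the same counts called 21 genes at an adjusted p under 0.05, of which 15 had at most 3 counts in every library of 1 group and only 2, Cfap100 and C4b, had more than 3 counts in all 13 libraries. The criteria of the study's methods ask for an unadjusted p under 0.05, a 1.2-fold difference and a mean above 5 TPM in either group. They were met by 66 genes that were higher (0.443%) and 81 that were lower (0.544%). Every p printed below for a gene is unadjusted unless it is called adjusted, and the adjusted p was 0.9999 for each gene named from this comparison, so "higher" and "lower" describe these libraries and no gene is called changed.

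The genes on either side differed in kind. Of the 66 higher genes, 52 had more than 3 counts in at least 10 of the 13 libraries, with a median difference of 1.72 on the log2 scale among these, and 6 were at most at 3 counts in every sham library. Of the 81 lower genes, 76 were found in at least 10 libraries, the median difference of these was 0.76, and none was absent from PTE-. The lower genes were the more abundant, with a median of 296.5 TPM in the group where they were higher, against 85.3 TPM. The balance of directions depended on scaling: with RLE factors in place of TMM 93 genes were higher and 58 lower. The number of genes also depended on single libraries, with 83 genes without sham mouse a9_9 and 265 without sham mouse a9_10. Without the 3 libraries of few genes, 206 genes met the criteria, and an unadjusted p under 0.05 was found again for 23 of the 66 higher and 30 of the 81 lower genes.

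C4b, a gene of complement component C4 that reactive astrocytes and microglia express, had the smallest p of all graded genes (chromosome 17, 34728380 to 34743882, minus strand, GRCm38). It ran from 131.6 through a median of 360.0 to 662.5 CPM in PTE-, and was at 69.06, 174.7, 59.04, 139.2 and 144.6 CPM in sham mice a8_15, a8_16, a9_9, a9_10 and a9_11. Of the 8 PTE- libraries 7 lay above every sham library, and the exception was a8_14, one of the libraries with few genes. The log2 fold change was 1.74 (SE 0.41, edgeR p = 0.000427, adjusted p = 0.9999), and exact permutation of the labels gave p = 0.00311. It ranged from 1.58 to 1.94 when any 1 library was dropped, was 1.74 without the 3 libraries of few genes, and had an adjusted p of 0.0116 in DESeq2. C4b has a close paralog, C4a, which was not analysed here, and reads of the pair may be assigned to either.

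Another 7 genes complete the 8 graded ones with the smallest p on the higher side. Cfap100, which encodes a cilia- and flagella-associated protein, was the only one of the 8 with no overlap between groups, at 22.09 to 94.23 CPM in PTE- against 7.72, 16.37, 12.50, 18.04 and 14.21 CPM in sham (log2 fold change 1.79, SE 0.54, edgeR p = 0.00400). Across all genes 5 (0.0336%) were without overlap in this direction and 9 (0.0604%) in the other. By exact permutation full separation in 1 direction has a chance of 0.000777 per gene, and neither share is above it. Ptgds encodes the prostaglandin D2 synthase of the meninges and choroid plexus. It ran from 143.0 through 769.2 to 4906.6 CPM in PTE-, against 54.60 to 486.7 CPM in sham (log2 fold change 2.30, SE 0.75, edgeR p = 0.00669, exact permutation p = 0.0590), and 5 of the 8 lay above all sham libraries. Its highest value came from mouse a9_16, without which the fold change was 1.57. Apod, a lipid-carrying apolipoprotein of glia and leptomeninges, was at 164.5 to 724.1 CPM against 38.57 to 256.7 CPM (log2 fold change 1.2, SE 0.44, edgeR p = 0.0134).

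Meis2, a homeobox factor of neural progenitors and interneurons, was at 11.02 to 97.60 CPM in PTE- and 7.39 to 23.55 CPM in sham, with 6 of 8 libraries above all sham (log2 fold change 1.75, SE 0.60, edgeR p = 0.00934). Tlk1, a kinase of chromatin assembly, had a median of 27.65 CPM against 12.23 CPM (log2 fold change 1.91, SE 0.69, edgeR p = 0.0124). Rcc2, a regulator of chromosome condensation and of small GTPases, had a median of 127.5 against 37.06 CPM (log2 fold change 1.15, SE 0.43, edgeR p = 0.0154), although sham mouse a9_10, at 146.9 CPM, exceeded all PTE- libraries but 1. The eighth gene is Vim. When the 3 libraries of few genes were dropped the p of Vim was 0.0739, that of Tlk1 0.0964 and that of Rcc2 0.0693, whereas C4b, Cfap100, Ptgds, Meis2 and Apod stayed under 0.05.

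**Figure D1:**
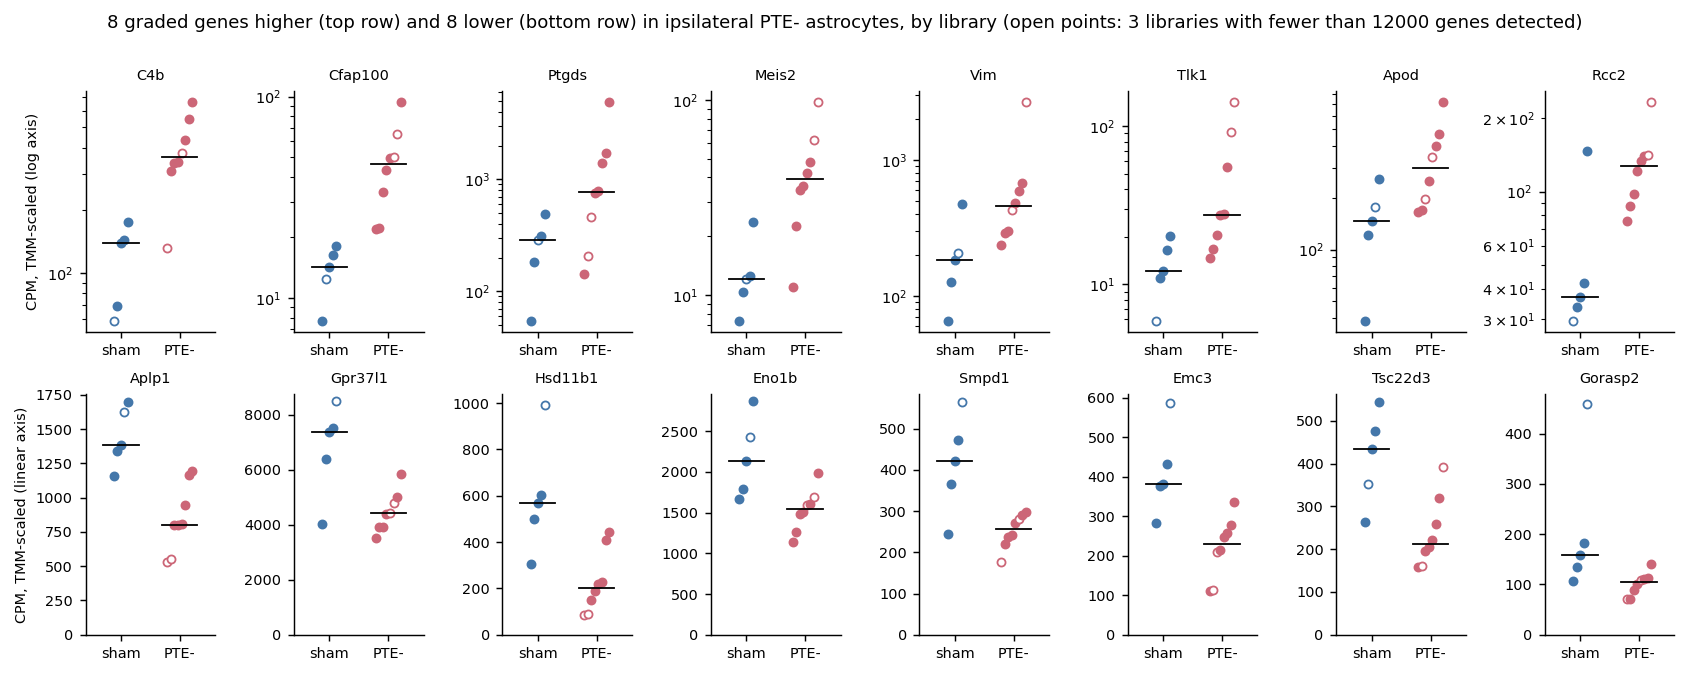
CPM of the 8 graded genes that were higher (top row, log axis) and the 8 that were lower (bottom row, linear axis from 0) in each of 5 sham and 8 PTE- libraries, where bars are group medians and open points the 3 libraries with fewer than 12000 genes detected. Cfap100 is the one gene without overlap, and C4b overlaps through a single PTE- library at 131.6 CPM.

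Among the graded lower genes Aplp1, a membrane protein related to the amyloid precursor, had the smallest p. It was at 528.4 to 1193.1 CPM in PTE-, with a median of 804.1, and at 1381.3, 1697.2, 1625.7, 1161.5 and 1340.4 CPM in the 5 sham libraries. Only 2 PTE- libraries reached the lowest sham value. A smaller p belonged to Slc11a1, a metal transporter of phagocytes that is outside the graded genes and is named for its values. It exceeded 3 counts in 1 of 8 PTE- and 4 of 5 sham libraries (fitted log2 fold change -8.73, SE 2.05, edgeR p = 0.000442, DESeq2 adjusted p = 1.31e-05). The log2 fold change of Aplp1 was -0.76 (SE 0.20, edgeR p = 0.00103, exact permutation p = 0.00544), and it ranged from -0.85 to -0.66 when any 1 library was dropped and was -0.55 without the 3 libraries of few genes.

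Gpr37l1, a receptor of astrocytes for prosaposin-derived peptides, was at 3536.8 to 5851.4 CPM in PTE- and 4015.8 to 8508.1 CPM in sham (log2 fold change -0.59, SE 0.16, edgeR p = 0.00190). The lowest sham value belonged to a9_10, and the other 4 sham libraries, from 6392.5 CPM upward, exceeded every PTE- library. Smpd1, the acid sphingomyelinase of lysosomes, was between 175.8 and 296.7 CPM in PTE-, and 4 of the 5 sham libraries, all but a9_10 at 244.6 CPM, were above that range (log2 fold change -0.72, SE 0.22, edgeR p = 0.00418). Sham mouse a9_10 was the lowest of the 5 sham libraries for each of the 8 graded lower genes.

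A pair of genes of glucocorticoid biology were among the 8. Hsd11b1 encodes the enzyme that regenerates active glucocorticoid inside cells, and had the largest fold of these 8 genes. Its levels were 85.54 to 441.9 CPM in PTE-, with a median of 202.0, against 568.2, 603.5, 993.3, 306.5 and 499.2 CPM in sham (log2 fold change -1.40, SE 0.40, edgeR p = 0.00234). Tsc22d3 encodes GILZ, a protein induced by glucocorticoids. It had a median of 213.1 CPM in PTE- and 435.0 CPM in sham (log2 fold change -0.79, SE 0.27, edgeR p = 0.00775), and here the library a8_11 was the highest of PTE-, at 392.6 CPM. The pair was noticed after the values had been seen, and no list of glucocorticoid targets was tested. Fkbp5, another gene induced by glucocorticoids and a member of the A1 list, lay on the other side (log2 fold change 1.93, SE 1.57, edgeR p = 0.235). Whether such genes shared a direction was not tested.

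Emc3, of the complex that inserts membrane proteins in the endoplasmic reticulum, was at a median of 229.8 CPM against 382.2 CPM (log2 fold change -0.90, SE 0.29, edgeR p = 0.00552), with 7 of 8 PTE- libraries below every sham library. Gorasp2, a stacking protein of the Golgi, was at 105.1 against 158.6 CPM (log2 fold change -1.05, SE 0.35, edgeR p = 0.00781). Its fold rested in part on sham mouse a9_9, at 459.4 CPM, without which it was -0.54 (edgeR p = 0.103). The last of the 8 was Eno1b, at 1546.1 against 2127.0 CPM (log2 fold change -0.51, SE 0.15, edgeR p = 0.00401). Eno1b is nearly identical to the enolase gene Eno1, whose values ran parallel (median 1606.2 against 2204.1 CPM, log2 fold change -0.46, SE 0.15, edgeR p = 0.00783), so that reads cannot be assigned between them with certainty and they count as 1 observation.

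Mouse numbers carry the prefix a8 (3 PTE- and 2 sham) or a9 (5 PTE- and 3 sham), whose meaning the labels do not give. All 16 graded genes had the same sign within either prefix. For C4b the difference of mean log2(CPM + 1) was 1.17 in a8 mice, where the exact permutation p of 0.3 compares with a smallest possible p of 0.1, and 2.07 in a9 mice, where p = 0.0179 was the smallest the exact test can give. For Aplp1 it was -1.31 in a8 (exact p = 0.1) and -0.49 in a9 mice (exact p = 0.0714).

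The genes of the resting functions of astrocytes were mostly lower in PTE-. Of 20 astrocyte markers 18 were below 0, with a median log2 fold change of -0.38, beside a median of 0.02 over all 14903 genes, where 7233 were below 0. Of the 20, 5 had an unadjusted p under 0.05 and all 5 were lower, against 0.772% of all genes. They were Gpr37l1, Aldh1l1 (a folate enzyme used as a pan-astrocyte marker), Aldoc (the aldolase of astrocytes), Plpp3 (a lipid phosphatase) and Glul (glutamine synthetase). The share over all genes is not a like one, since the markers are abundant and abundant genes varied less. The fitted coefficient of variation had a median of 0.42 at a log2 CPM of 8 and over, against 2.38 under 2. Over the 6113 genes with an average log2 CPM of 5 or more, 112 had an edgeR p under 0.05 in either direction, and the median was -0.03. For each list below the shares over all genes at that p are again 0.812% higher and 0.772% lower. In the fit without the 3 libraries of few genes they are 0.966% and 0.979%. Aldh1l1 had a median of 545.8 CPM in PTE- and 846.6 in sham (log2 fold change -0.63, SE 0.21, edgeR p = 0.00882, and p = 0.0570 without sham mouse a8_15). Aldoc had one of 7331.0 against 10568 CPM (log2 fold change -0.72, SE 0.27, edgeR p = 0.0145, and p = 0.0728 without sham a8_15 and 0.0660 without sham a8_16). Glul was at -0.50 (SE 0.23, edgeR p = 0.0399). Its p exceeded 0.05 in 8 of the 13 fits that dropped 1 library, from 0.0573 without PTE- a9_14 to 0.130 without sham a8_15, the others being those without PTE- a8_11, a9_12, a9_15 or a9_16 and sham a8_16 or a9_9. The defining markers Aqp4, Slc1a2, Slc1a3 and Gja1 had fold changes from -0.56 to -0.22 and p from 0.113 to 0.384. Sox9 (0.05) and S100b (0.31) were the 2 markers above 0.

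The shift of this list was smaller without the libraries of few genes. The summed level of the 20 markers was 36833 to 53492 TPM in sham and 21577 to 48630 TPM in PTE-, lowest in a8_11. With those 3 left aside the median of the list was -0.14, 18 markers were below 0 (17 of them in both fits), and Gpr37l1 (-0.51, edgeR p = 0.0310) and Aldh1l1 (-0.56, edgeR p = 0.0320) kept a p under 0.05. Several of the 18 were then close to 0, such as Mlc1 (-0.0009), Atp1b2 (-0.005), Slc1a2 (-0.02) and Gja1 (-0.07). Slc1a3 was at -0.14 and Aqp4 at 0.09 in that fit.

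The list of potassium, water and glutamate handling had 18 of 21 genes below 0 and a median of -0.36. Aqp4, Atp1b2, Slc1a2, Slc1a3, Glul, Gja1 and Gjb6 are in this list and among the astrocyte markers above, so the lists are not separate observations. Slc38a3, the SNAT3 transporter that releases glutamine, was at a median of 725.9 CPM in PTE- and 1022.8 in sham, with 6 of 8 PTE- libraries below all sham (log2 fold change -0.68, SE 0.27, edgeR p = 0.0214). Its p was 0.0656 without sham mouse a9_11 and 0.0528 without sham mouse a9_9. Slc38a3 and Glul were the 2 of 21 with p under 0.05, both lower, against 0.772% of all genes. Kcnj10, the potassium channel Kir4.1, was at -0.45 (edgeR p = 0.522). The median of these 21 genes was -0.07 without the 3 libraries and none had a p under 0.05.

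Sugar and lipid metabolism were lower by small amounts. In the list of glycolysis and glycogen, 18 of 23 genes were below 0 and the median was -0.28. Of the 23, 3 (Eno1, Aldoc and Ldhb) had p under 0.05, all lower, against 0.772% of all genes. Gapdh, Pkm, Pgk1 and Ldha were at -0.21, -0.21, -0.33 and -0.39, with p from 0.127 to 0.259. This median was -0.28 without the 3 libraries and ranged from -0.32 to -0.21 when any 1 library was dropped. Ldhb (-0.45, SE 0.21, edgeR p = 0.0446), the subunit of lactate dehydrogenase that favours pyruvate, exceeded 0.05 in 8 of 13 such fits, from 0.0598 without PTE- a8_11 to 0.193 without sham a8_15, the others being those without PTE- a8_14, a9_12, a9_15 or a9_16 and sham a8_16 or a9_9. In the list of cholesterol and lipid, 22 of 28 were below 0 with a median of -0.35. Msmo1, a demethylase of sterol synthesis, was at a median of 501.0 CPM in PTE- and 1102.2 in sham (log2 fold change -0.92, SE 0.32, edgeR p = 0.00883, and p = 0.0564 without sham mouse a9_9). Apoe, the main lipid carrier of astrocytes, had -0.32 (SE 0.16, edgeR p = 0.0585). The median was -0.27 without the 3 libraries.

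**Figure D2:**
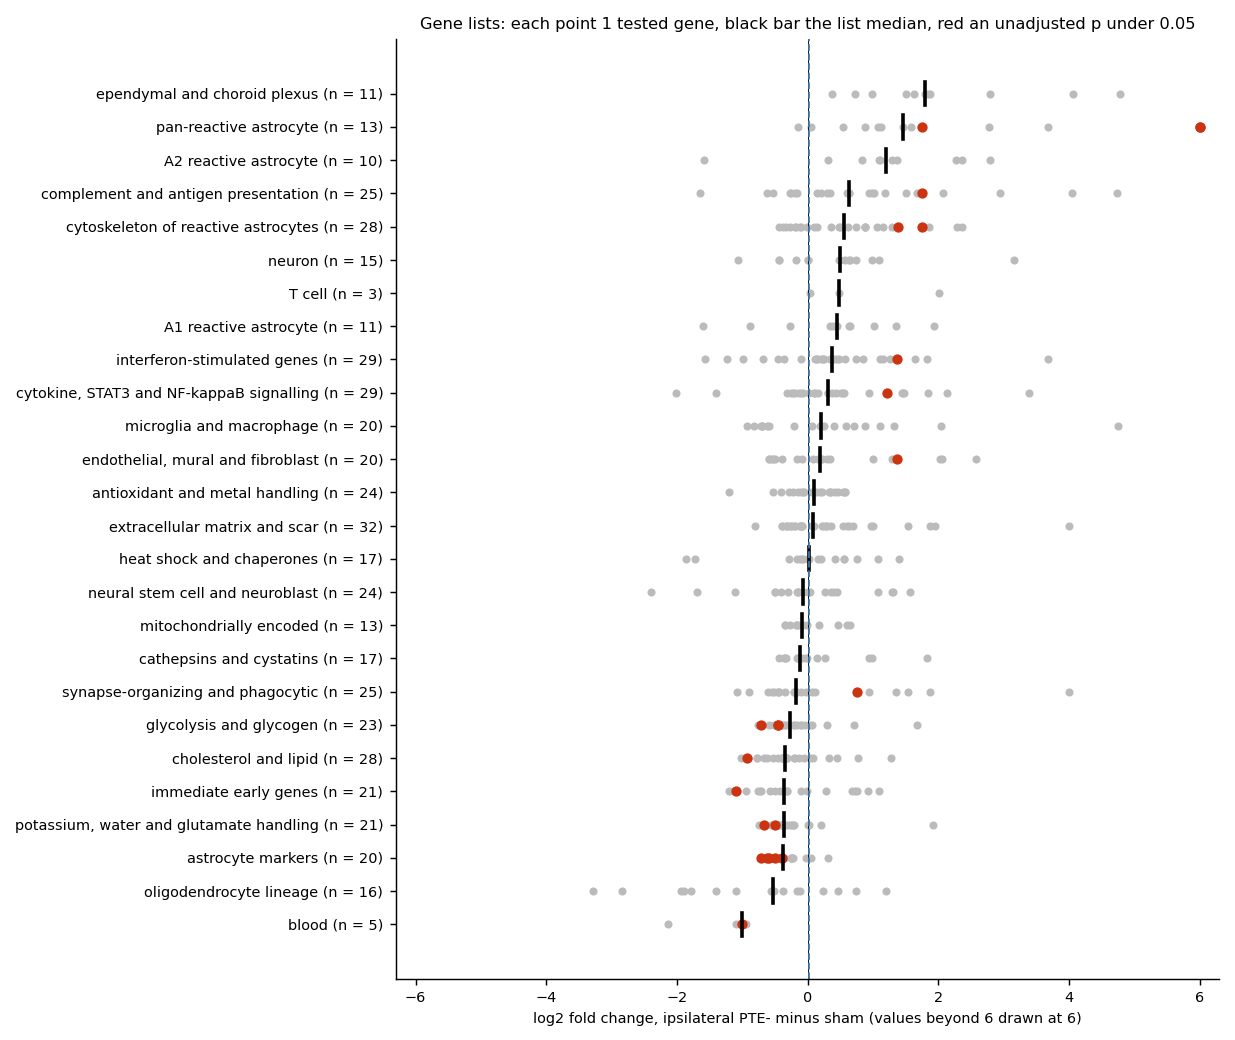
Log2 fold changes of PTE- minus sham for each tested gene of 26 lists, sorted by the list median (black bar), with red for an unadjusted p under 0.05, a dashed line at 0.02 for the median of all genes and fold changes beyond 6 drawn at 6. Ependymal and pan-reactive lists lie farthest to the right, at 1.80 and 1.46, and blood and oligodendrocyte lists farthest to the left, at -1.01 and -0.54.

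Genes of the reactive state were mostly above 0 but spread widely. Of 13 pan-reactive genes 12 were above 0, with a median of 1.46. The 3 with p under 0.05, all higher, were Vim, Lcn2 and Timp1, against 0.812% of all genes. The last 2 of these 3 were at the counting limit in every sham library. Gfap, the filament protein that defines astrogliosis in tissue sections, ran from 549.4 through 1090.3 to 3987.0 CPM in PTE-, highest in a9_13, and lay at 458.1, 1403.0, 497.2, 1142.8 and 333.6 CPM in sham. Only 2 PTE- libraries exceeded all sham ones (log2 fold change 0.87, SE 0.48, edgeR p = 0.0843). Serpina3n, a secreted protease inhibitor, was above every sham library in 6 of 8 PTE- mice and below every one in the other 2, since a8_11 held 0.0775 CPM and a9_12 52.55 CPM. Its fold change was 1.12 (SE 0.88, edgeR p = 0.222), and 1.31 without the 3 libraries of few genes (edgeR p = 0.0453). Osmr, the oncostatin M receptor, had a median of 20.58 against 4.03 CPM (log2 fold change 1.46, SE 1.44, edgeR p = 0.322), and without the 3 libraries 1.55 with p = 0.0355.

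The remaining members did not separate. Hspb1, a small heat shock protein, was at 1.083 (edgeR p = 0.141), Cd44, the hyaluronan receptor, at 1.58 (edgeR p = 0.364), and Steap4, a metalloreductase, at 2.77 (edgeR p = 0.297). Aspg, an asparaginase, had 0.55 (edgeR p = 0.660), S1pr3, a receptor of sphingosine-1-phosphate, 0.05 (edgeR p = 0.959) and Cp, the ferroxidase ceruloplasmin, -0.15 (edgeR p = 0.894). S1pr3 and Cp changed sign when single libraries were left out. The summed level of the 13 genes was 1185.9 to 3762.1 TPM in PTE- and 591.9 to 1338.9 TPM in sham.

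The A2 list had 9 of 10 genes above 0 with a median of 1.2, and none with p under 0.05. The nearest was Tm4sf1, a tetraspanin-like membrane protein (1.09, SE 0.54, edgeR p = 0.0565). The A1 list had 8 of 11 above 0 with a median of 0.45, and again none with p under 0.05. Serping1, the C1 inhibitor of the complement cascade, came nearest (1.02, edgeR p = 0.101) and reached 1.61 with p = 0.00218 without the 3 libraries. In the list of complement and antigen presentation 18 of 25 were above 0 with a median of 0.63, and C4b alone had p under 0.05. The median was 0.25 without the 3 libraries, and the genes with p under 0.05 were 3 of the complement system, namely C4b, Serping1 and Cd59a, a membrane inhibitor of its lytic complex. C3, the central component, was at 1.67 (edgeR p = 0.184). The class I genes H2-K1 and H2-D1 were at -0.54 and -0.27, with p of 0.333 and 0.552.

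Among 28 genes of the cytoskeleton of reactive astrocytes, 19 were above 0 with a median of 0.55. Of the 28, 2, Vim and S100a6, had p under 0.05, both higher, against 0.812% of all genes. S100a6, a calcium-binding protein of the S100 family, was above all sham libraries in 7 of 8 PTE- libraries, at a median of 51.97 against 33.53 CPM (log2 fold change 1.38, SE 0.60, edgeR p = 0.0331). The size rested on a8_11, at 288.1 CPM, since the fold change was 0.76 without it (edgeR p = 0.0851). Leaving out sham a8_15, a9_10 or a9_11 gave p of 0.0553, 0.0573 and 0.0777.

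Of 29 interferon-stimulated genes 22 were above 0 (median 0.37). Ifitm3, which blocks the entry of viruses, was the only one with p under 0.05 (1.36, SE 0.60, edgeR p = 0.0344). It was at 863.4 CPM in a8_11, without which it was 0.72 (edgeR p = 0.120), and the p was also over 0.05, up to 0.0807, without sham a8_15, a8_16, a9_9 or a9_11. Of 29 genes of cytokine, STAT3 and NF-kappaB signalling 20 were above 0 (median 0.31), and Cebpb, a transcription factor of the acute phase, was the only one with p under 0.05 (1.21, SE 0.53, edgeR p = 0.0356). Its p was 0.0776 without PTE- a9_16 and over 0.05 also without sham a9_9, a9_10 or a9_11. Of 32 genes of extracellular matrix and scar 17 were above 0 (median 0.08), and none had p under 0.05. Tnc, the scar protein tenascin C, was at 1.95 (edgeR p = 0.0958) with all libraries and at 1.43 (edgeR p = 0.0218) without the 3.

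Of 25 synapse-organizing and phagocytic genes 16 were below 0 (median -0.19). Gas6, a ligand that bridges dying cells to phagocytic receptors of the TAM family, was the one with p under 0.05 and was higher, at 332.1 to 813.9 CPM in PTE- and 216.5, 296.3, 213.7, 546.1 and 242.3 CPM in sham (log2 fold change 0.76, SE 0.29, edgeR p = 0.0167). Sham mouse a9_10 held the one high sham value. The p was 0.0537 without sham a8_15 and 0.0462 without the 3 libraries.

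Immediate early genes, which cells switch on within minutes of stimulation or of handling, divided the sham libraries. In PTE- 15 of 21 were below 0 (median -0.36), and Dusp1 alone had p under 0.05. When the 3 libraries with few genes were dropped, 19 of 21 were below 0, the median was -1.05, and 9 had p under 0.05, all lower, beside 0.979% of all genes lower and 0.966% higher in that fit (Fos, Jun, Junb, Egr1, Nr4a1, Ier2, Dusp1, Klf2 and Zfp36). No adjusted p was under 0.05 in that fit either. The dropped libraries are among those that ran against this direction, since Fos was at 0 in sham a9_9 and its 2 highest PTE- values were those of a8_14 (1917.2 CPM) and a8_11 (496.9 CPM). Of the 9, 7 had a promoter window, Egr1 and Ier2 having none. The windows below belong to those of the 7 that hold a match to a CRE (TGACGTCA, the site of CREB) or to a CArG box (the site of SRF), which are the classical inputs to such genes. They are read from RefSeq on GRCm38.p6 from 250 bases before to 50 after the start, 5′ to 3′ along the gene, with the match in capitals. For Dusp1 the window is chr17:26508423-26508722 and the capitals are the CRE, and for Zfp36 it is chr7:28379179-28379478 and the capitals are the CArG box, both on the minus strand.
Dusp1: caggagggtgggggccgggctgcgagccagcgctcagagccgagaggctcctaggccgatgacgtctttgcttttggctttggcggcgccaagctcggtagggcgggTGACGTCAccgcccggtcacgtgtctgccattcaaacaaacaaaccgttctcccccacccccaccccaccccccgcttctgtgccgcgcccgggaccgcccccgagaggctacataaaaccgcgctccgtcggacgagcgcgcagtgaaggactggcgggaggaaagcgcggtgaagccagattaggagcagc
Zfp36: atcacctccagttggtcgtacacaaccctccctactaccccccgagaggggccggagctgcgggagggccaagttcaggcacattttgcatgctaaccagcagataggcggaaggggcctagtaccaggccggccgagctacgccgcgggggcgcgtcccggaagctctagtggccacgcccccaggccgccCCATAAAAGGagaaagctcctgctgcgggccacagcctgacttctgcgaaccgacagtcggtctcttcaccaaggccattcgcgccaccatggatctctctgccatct
Windows were at hand for 17 of the 21 genes, and these windows numbered 21 because Egr2 has several. A CRE was in 2 of these windows (Btg2 and Dusp1), and in 1.79% of 32851 windows of all genes. A CArG box was in 5 of them, and in 1.63% of all windows. The 5 belong to 2 genes, Egr2, whose windows partly overlap, and Zfp36, so they are not separate matches. Both motifs read the same on either strand, and a match is a description of these letters only.

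Fos and Egr1 are described because of their values. Fos, a subunit of AP-1, was at 1511.2, 1107.4 and 1266.8 CPM in sham mice a8_15, a8_16 and a9_11, but at 25.81 CPM in a9_10 and at 0 in a9_9. In PTE- it ran from 77.54 through 163.1 to 1917.2 CPM, and the top value belonged to a8_14. The groups overlapped, and the log2 fold change was -0.94 (SE 1.21, edgeR p = 0.446), or -2.81 (SE 0.84, edgeR p = 0.00453) without the 3 libraries. Egr1, a zinc finger factor of the same response, had 291.0, 273.0 and 438.6 CPM in the same 3 sham mice and 14.62 and 0 CPM in the other 2, with 4.25 to 450.6 CPM and a median of 57.30 in PTE-. Dusp1, a phosphatase that ends MAP kinase signalling, had 665.5, 608.6 and 517.8 CPM in the 3, 75.03 and 68.33 CPM in the other 2, and 118.9 to 355.8 CPM in PTE- (log2 fold change -1.10, SE 0.48, edgeR p = 0.0330, exact permutation p = 0.343). Thus the PTE- libraries lay between the high and the low sham libraries for Dusp1, and the direction of the difference for the list rests on 3 of the 5 sham mice. The p of Dusp1 exceeded 0.05 in 8 of the 13 fits that dropped 1 library, from 0.0521 without PTE- a8_9 to 0.126 without sham a8_15, the others being those without PTE- a8_11, a9_13, a9_14 or a9_15 and sham a8_16 or a9_11.

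**Figure D3:**
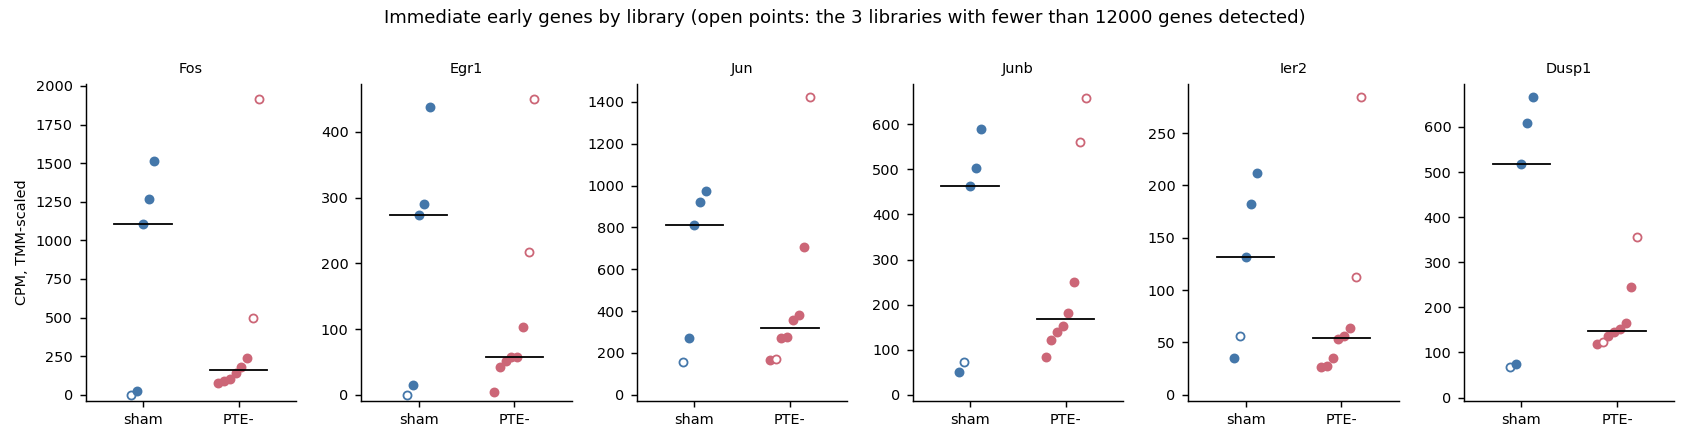
CPM of 6 immediate early genes in each of 5 sham and 8 PTE- libraries (linear axes), with bars for group medians and open points for the 3 libraries with fewer than 12000 genes detected. In every panel 3 sham libraries are high and 2 low, and most PTE- libraries lie near the lower end.

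Markers of cells other than astrocytes moved with some of the results. All 11 genes of the ependymal and choroid plexus list were above 0 in PTE- (median 1.80), though none had p under 0.05, and the median ranged from 0.80 to 2.47 when any 1 library was dropped. Their summed level was 761.1 to 11770 TPM in PTE-, with a9_12 (11770) and a8_11 (11272) far above the other 6 (at most 1636.8), and 469.4 to 3268.8 TPM in sham, highest in a9_10. In a9_12 the choroid plexus gene Ttr, for transthyretin, accounted for most of the sum, at 7447.8 TPM. Foxj1, the master regulator of motile cilia, had a median of 17.73 TPM in PTE- and 6.23 TPM in sham (log2 fold change 1.62, SE 0.97, edgeR p = 0.111), and Dynlrb2, a dynein subunit of cilia, one of 270.8 and 84.80 TPM (log2 fold change 1.80, SE 0.97, edgeR p = 0.0793). These genes lay on the same side as the ciliary gene Cfap100, and their part in its difference was not tested. The libraries a9_12 and a8_11, which held the most of these markers, also had the highest Cfap100 values, at 94.23 and 64.88 CPM.

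Fibroblast genes were also found on the higher side. In the list of endothelial, mural and fibroblast genes 12 of 20 were above 0 (median 0.18). Dcn, for the matrix proteoglycan decorin, was the one with p under 0.05, at 73.87 to 436.9 CPM in PTE- and at 96.84, 82.68, 32.11, 7.63 and 86.01 CPM in sham (log2 fold change 1.37, SE 0.56, edgeR p = 0.0249, and p = 0.0775 without PTE- a9_16 and 0.0599 without sham a9_9). The collagen genes Col1a1, Col1a2 and Col3a1 were at 2.02, 2.58 and 2.05, with p from 0.0805 to 0.222. In the fit without the 3 libraries of few genes these collagens and Dcn all had p under 0.05 and were the only 4 of the list, while 14 of its 20 genes were below 0 and the median was -0.31. The endothelial markers Cldn5 and Pecam1 were at 0.08 and -0.39, with p of 0.916 and 0.629. Ptgds, Apod, Prg4 and Foxc2 are known from meningeal or perivascular fibroblasts as well, and Ptgds, Foxc2 and Dcn each had their highest value in a9_16. The part of such cells in the difference of these genes was not tested.

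Microglial genes had no common direction (12 of 20 above 0, median 0.20, none with p under 0.05), and their sum was 233.7 to 1479.2 TPM in PTE- and 155.4 to 1596.2 TPM in sham. The 2 PTE- mice with the most C4b, a9_16 and a9_13, also had high microglial sums (1470.9 and 1288.8 TPM), while sham mouse a9_10, with the highest sum, had 139.2 CPM of C4b. PTE- mouse a8_11, with the highest PTE- sum (1479.2 TPM), had 377.3 CPM of C4b, and a9_15 had 434.4 CPM with a sum of 426.4 TPM. The part of microglia in the C4b difference was not tested. Oligodendrocyte genes were below 0 in 12 of 16 (median -0.54, none with p under 0.05), and Mbp, for myelin basic protein, had medians of 104.5 TPM in PTE- and 359.0 TPM in sham (edgeR p = 0.0921). Neuronal genes were above 0 in 11 of 15 (median 0.50) and the median was 0.0069 in the lowest of the fits that dropped 1 library. Only 3 genes of the T cell list could be tested, with a median of 0.48. All 5 blood genes were below 0 (median -1.01), and the beta-globin gene Hbb-bs, nearly identical to its neighbour Hbb-bt, had a median of 85.07 CPM against 189.4 CPM in sham (log2 fold change -1.01, SE 0.47, edgeR p = 0.0464). Its p was over 0.05, up to 0.152, without PTE- a8_9, a9_12, a9_13, a9_14 or a9_15 or sham a9_9, a9_10 or a9_11.

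**Figure D4:**
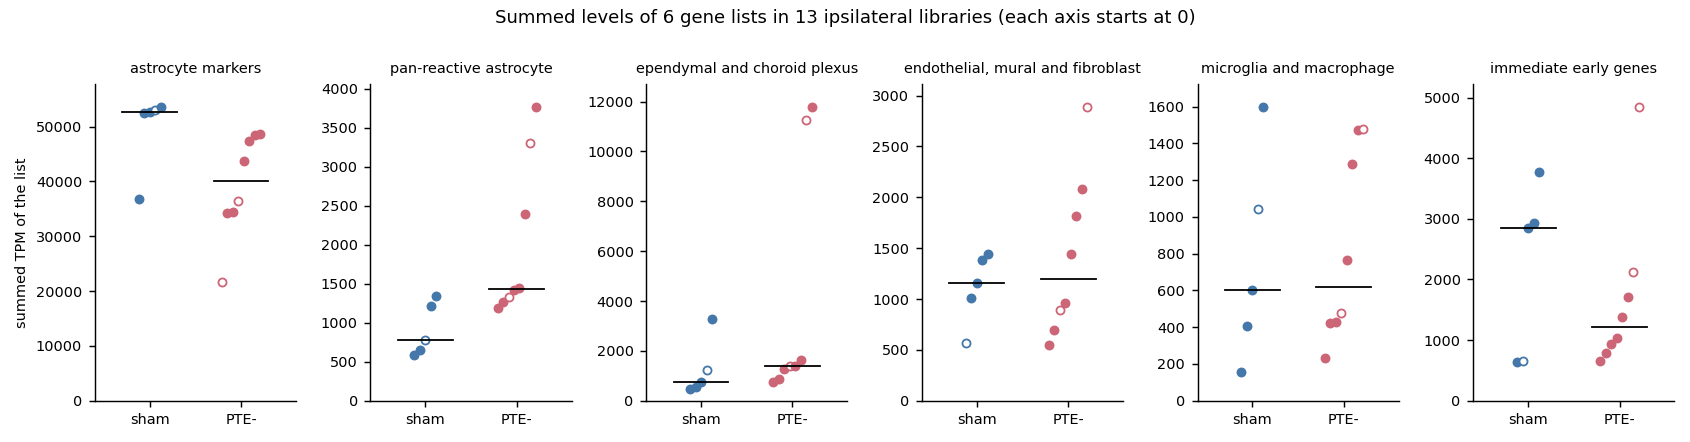
Summed TPM of 6 gene lists in each of 5 sham and 8 PTE- libraries (linear axes from 0), with bars for group medians and open points for the 3 libraries with fewer than 12000 genes detected. Ependymal and choroid plexus genes are high in 2 PTE- libraries, at 11770 and 11272 TPM, and pan-reactive genes lie mostly above the sham range of 591.9 to 1338.9 TPM.

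The other lists had no gene with p under 0.05. Heat shock genes and chaperones had a median of 0.02 (10 of 17 above 0), antioxidant and metal handling genes one of 0.09 (15 of 24 above 0), cathepsins and cystatins -0.11 (12 of 17 below 0), neural stem cell and neuroblast genes -0.07 (14 of 24 below 0) and mitochondrially encoded genes -0.09 (9 of 13 below 0). Ribosomal protein genes were above 0 in 68 of 79, with a median of 0.51. That median was 0.10 without the 3 libraries, and the highest sum, 30410 TPM against 8156.3 to 18392 TPM in the other 12, was that of a8_11.

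Some genes were found in PTE- but not in sham libraries. Of the 6 genes that met the criteria with at most 3 counts in all 5 sham libraries, 2 are Lcn2 and Timp1. They are not particular to PTE-, since Lcn2 was also at 1.34 and 4.93 CPM in 2 of the 4 PTE+ libraries and Glycam1 at 1.2 CPM in 1. Prg4, which encodes the lubricating proteoglycan lubricin, exceeded 3 counts in 5 of 8 PTE- libraries, at 35.83 CPM in a9_16, 31.97 in a9_12, 5.99 in a8_9, 0.291 in a9_15 and 0.0858 in a9_13. It was at least 118-fold higher on average than the 3-count limit of the sham libraries, and at least 69.5-fold without a9_16. Foxc2, a forkhead factor of mesenchyme and lymphatic vessels, was found in 4 of 8, at 46.35 CPM in a9_16, 23.45 in a9_12, 4.77 in a8_9 and 3.60 in a9_13, and was at least 124-fold higher, or at least 57.7-fold without a9_16. The mice a9_16, a9_12 and a8_9 held the highest values, in that order, for both genes. Trim61, a gene of the TRIM family, was found in 4 (38.67 CPM in a8_14, then 10.93, 6.12 and 3.95 CPM), and was at least 94.7-fold higher, or at least 38.1-fold without a8_14. Glycam1, a mucin-like ligand of L-selectin, was found in 4 as well, and its bound of 29.6-fold fell to 7.29-fold without a8_14. In each of the 4 genes 3 or 4 of the 8 PTE- libraries held no more than 3 counts, and exact permutation p-values were between 0.133 and 0.189. The PTE- medians were 0.188 CPM for Prg4, 1.802 for Foxc2, 1.975 for Trim61 and 0.175 for Glycam1, so the bounds rest on a few high libraries. These genes were picked for their absence from sham libraries, so the bounds describe them and do not support a difference. No gene met the criteria with at most 3 counts in all PTE- libraries. Absence from 8 PTE- libraries is a stricter demand than absence from 5 sham libraries. Of the 21 DESeq2 calls, 12 were absent from sham and 3 from PTE-.

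The opposite hippocampus was compared in the same way. The 15 contralateral libraries of PTE- and sham mice, 13 of them from mice with an ipsilateral library, were compared in a fit of their own, and no list was tested for a difference between the sides. There the 20 astrocyte markers had a median of 0.04, with 11 above and 9 below 0, the 21 potassium, water and glutamate genes one of 0.02, glycolysis and glycogen 0.07, and none of these genes had p under 0.05. The pan-reactive median was 0.29 over 11 tested genes, and that of the ependymal list 0.41 with all 11 genes above 0. C4b was at 0.77 (SE 0.39, edgeR p = 0.0614) on that side and Ptgds at 1.98 (SE 0.61, edgeR p = 0.00361), close to its ipsilateral value, while Aplp1 was at -0.07 (SE 0.14) and Hsd11b1 at -0.35 (SE 0.29).

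The difference between the sides was then tested itself, as the interaction of injury and hemisphere in the 13 mice with both libraries. Of 15133 genes 315 (2.08%) had an unadjusted p under 0.05 and none an adjusted one. With the mouse as a block, which pairs the 2 hippocampi, 126 genes had an unadjusted p under 0.05 and again none an adjusted p under 0.05, whereas DESeq2 with the same block called 84 genes. The genes with the smallest p that were found in at least 20 of the 26 libraries were Eno1b (-0.77), Eno1 (-0.71) and Pmm1 (-1.21) on the lower side and Tacr1, Dnah7c and Nefm on the higher side. Pmm1 encodes a phosphomannomutase. On the injured side it had a median of 381.3 CPM in PTE- and 583.3 in sham (log2 fold change -0.76, SE 0.26, edgeR p = 0.00820), on the other side a fold change of 0.35 (SE 0.22), and the interaction had an edgeR p of 0.00265 unpaired and 0.00619 in the blocked fit. These genes were picked from all genes for their interaction, so their values describe it and do not support it.

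For the 3 higher genes the blocked fit gave p over 0.05. Nefm, a neurofilament gene of neurons, had 209.0 CPM in a8_11 and a median of 3.86 CPM, and its interaction of 7.01 (edgeR p = 0.0138) had a p of 0.107 in the blocked fit. Tacr1, the receptor of substance P, was at 28.40 CPM in a9_16 and had a median of 0.120 CPM, and its interaction of 6.83 became 0.025 in the blocked fit (edgeR p = 0.00775 unpaired and 0.999 blocked). Dnah7c, a dynein heavy chain with near-identical copies beside it, ran from 0 to 74.28 CPM in PTE-, and 5 of 8 libraries lay above and 3 below the sham range of 0.112 to 0.624 CPM, and its interaction of 7.48 was 3.26 in the blocked fit (edgeR p = 0.00795 unpaired and 0.457 blocked). C4b differed between the sides by 0.93 (edgeR p = 0.109, and p = 0.0863 in the blocked fit), so a difference between the sides was not shown for it. Aplp1 differed by -0.68 (edgeR p = 0.0173, blocked p = 0.0376) and Hsd11b1 by -1.04 (edgeR p = 0.0454, blocked p = 0.0273), all unadjusted. C4b, Aplp1 and Hsd11b1 were picked for their ipsilateral p, which enters this difference, so these values describe it and do not support it.

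**Figure D5:**
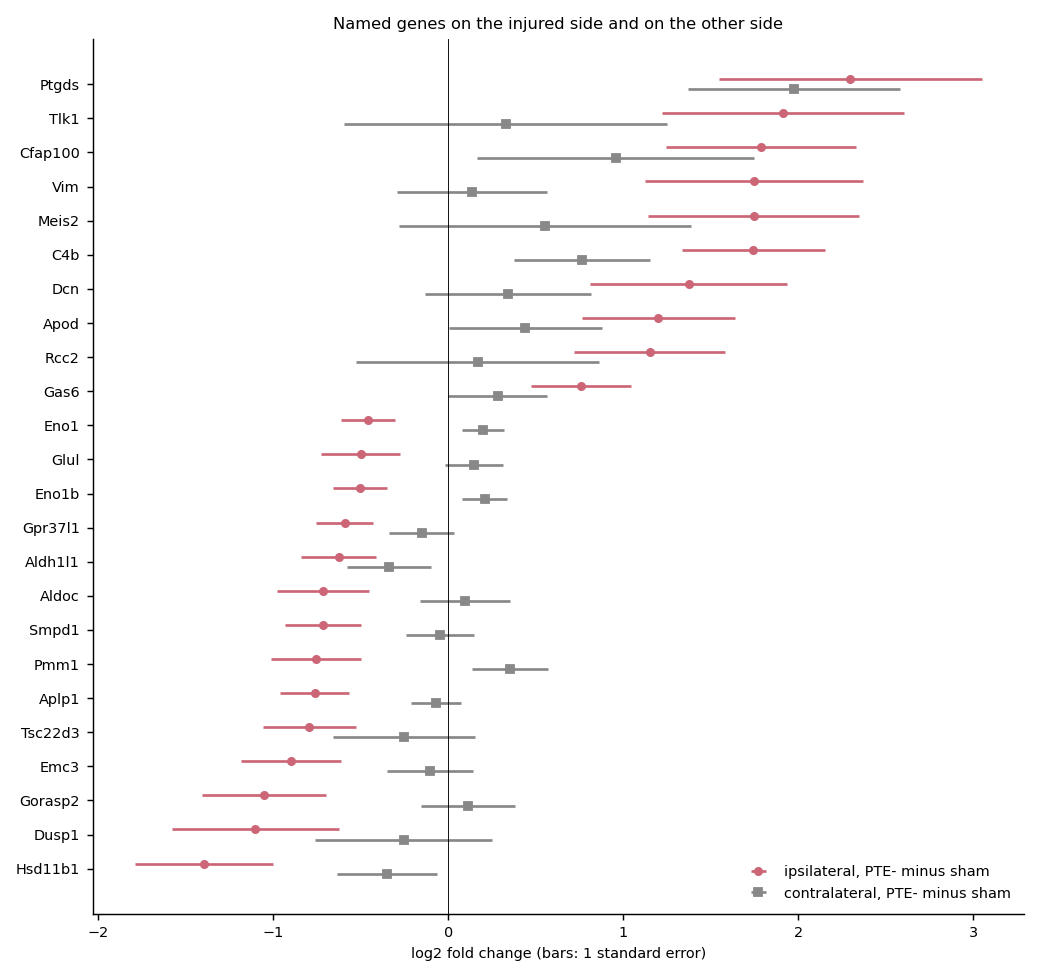
Log2 fold changes of PTE- minus sham with 1 SE for 24 named genes in ipsilateral (circles) and contralateral (squares) libraries, sorted by the ipsilateral value. Ptgds lies near 2 on both sides (2.30 and 1.98), whereas Eno1, Eno1b and Pmm1 are below 0 on the injured side and above 0 on the other.

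Injured mice with epilepsy are shown beside these values because they carry the same injury. Their comparison uses the same 5 sham libraries, so the 2 sets of fold changes share controls and are set side by side without a test of likeness. C4b was at 1.33 (SE 0.45) in PTE+ and 1.74 in PTE-, with 131.8 to 486.1 CPM in the 4 PTE+ libraries. Gpr37l1 was at -0.57 and -0.59, Hsd11b1 at -1.71 and -1.40, Tsc22d3 at -1.16 and -0.79, Smpd1 at -0.78 and -0.72, and Eno1 at -0.51 and -0.46. Some values of PTE- had a smaller counterpart in PTE+, namely Vim (0.62), Meis2 (1.14), S100a6 (0.23) and Ifitm3 (0.29), while Cebpb lay on the other side of 0 (-0.18). The median of the pan-reactive list was 0.62 in PTE+ and 1.46 in PTE-, that of the A2 list 0.04 and 1.2, that of the ependymal list 0.49 and 1.80, and that of the astrocyte markers -0.34 and -0.38. Whether PTE- and PTE+ differed in any of these was not tested here.

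Finally, 14 genes had no overlap between the 13 libraries. They are named because of their values. The 5 higher ones were Cfap100, Fxyd7, Ppp2r3a, Phlda3 and Gm20075, and the 9 lower ones Smpd3, Kirrel2, Gja4, Pcdh11x, Rab40c, Paqr3, Stambp, Vmn2r92 and Dolk. Fxyd7, a regulator of the sodium pump, was at 3.367 to 38.25 CPM in PTE- and at most 3.361 CPM in sham (log2 fold change 2.69, SE 1.18, edgeR p = 0.0351). Phlda3, a target of p53, was at 26.13 to 82.05 CPM against 0 to 23.15 CPM. Gja4, a connexin of arterial endothelium, was at 0 to 23.08 CPM in PTE- and 29.29 to 87.04 CPM in sham (log2 fold change -2.54, SE 1.35, edgeR p = 0.0758). Only Cfap100, Smpd3, Fxyd7 and Kirrel2 of the 14 met the criteria.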

How the data were processed

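Hippocampal astrocytes were profiled by RNA-seq, and the deposited tables give expected counts and TPM per gene. The authors trimmed reads with Trim Galore 0.6.4, aligned them with Bowtie2 2.4.1 to mm10 and estimated counts with RSEM 1.2.28, which gave the expected counts and the TPM values as deposited. The annotation release is not given in the sources used here. Expected counts were used as deposited. Genes passing filterByExpr were fitted in edgeR 4.0.16 (R 4.3.3) with TMM factors and the quasi-likelihood F test over 17 ipsilateral libraries in 3 groups, with the contrast PTE- minus sham, Benjamini-Hochberg adjustment and SE taken as the fold change over the root of F. The authors used DESeq2 1.36.0, and DESeq2 1.42.0 and limma 3.58.1 served as alternatives. Exact permutation tests were two-sided over 1287 splits of the mean log2(CPM + 1), with a smallest possible p of 0.000777. A gene at 3 counts or fewer was taken as not found, and bounds on folds use 3 counts in the sham library with the highest such floor. They cover counting error only, since the amplified reads carry no stated molecular identifiers.

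Groups come from the sample labels. The 2 hippocampi of a mouse were paired by mouse in the blocked fit of the interaction, and their residuals correlated at -0.112 to 0.437 over 6009 genes. Members, gene lists and tests were chosen with earlier results of these data known. Some genes stand in more than 1 list, for example Glul, Aldoc, Gfap, Vim, S100a10 and Serping1, so lists that share members are not separate observations. The named genes were, by rule, the 8 graded genes per direction with the smallest p that met the criteria in at least 10 libraries and kept their sign with any library dropped, up to 5 genes found in 1 group, the pan-reactive genes, up to 3 genes per list with p under 0.05, and up to 3 genes per direction of the interaction. Other genes are named from the lists as markers or after their values were seen. The scripts were tested on simulated data. Alternatives were the scaling, the filter, the tool, the groups fitted, a prefix of the mouse number, the number of detected genes, and dropping libraries. Dropping the 3 libraries of few genes was chosen after seeing the data.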

Additional observations from a re-analysis of the deposited data

Results flagged for a closer look

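Single libraries stood apart from their group on the log2(CPM + 1) scale in 11 of 100 groups of values examined with Dixon's test, where chance flags about 1 in 20 groups. Mouse a8_11, the PTE- library with the fewest genes, was the far value for Vim (11.38), Ifitm3 (9.756) and Nefm (7.714) at the high end and for Serpina3n (0.1077) and Aspg (0.0) at the low end. Mouse a8_14, the other PTE- library with few genes, was low for C4b (7.051) and high for Glycam1 (3.966), and a9_16 was high for Tacr1 (4.878). Among sham mice a9_10 was high for Rcc2 (7.208), a9_9 was at 0.0 for Aspg, and a8_15 had 0.03739 for Trim61, a value under the 3-count limit.

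The difference between PTE- and sham differed between the hemispheres in 9 of 48 genes at an exact permutation p under 0.05, given as ipsilateral minus contralateral on the log2(CPM + 1) scale. It was -0.738 for Eno1b, -0.6777 for Eno1, -1.158 for Pmm1 and 2.952 for Nefm, which had been picked for their interaction, so that their test is no support, and Eno1 and Eno1b, near-identical copies, are 1 observation. The others were Hbb-bs (-2.284), Vim (1.508), Rcc2 (0.9628), Hsd11b1 (-1.179) and Smpd1 (-0.5086). They had been named for a small ipsilateral p, which enters this difference, so their test is no support either. Adjusted over the 48 genes, the exact permutation p was 0.1119 for Hbb-bs and 0.2238 for each of Vim, Rcc2, Hsd11b1 and Smpd1. Over all 15133 genes the interaction had no adjusted p under 0.05 in edgeR, and 315 genes had an unadjusted one.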

How the results depend on the processing

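The number of genes meeting the criteria, 147, was 317 with DESeq2 (233 higher and 84 lower), 509 with voom and quality weights (223 and 286), 388 on log2(TPM + 1) (243 and 145) and 280 on log2(TPM + 0.1) (188 and 92), and ranged from 83 to 265 when any 1 library was dropped. Genes at an adjusted p under 0.05 numbered 0 with edgeR, 21 with DESeq2 over 3 groups, 18 over 2 groups, and 2 with voom. For the interaction, edgeR called 0 genes both unpaired and with the replicate block, and DESeq2 with the block 84. Among named genes the sign turned for Steap4 with the prefix as covariate (-4.811), for S1pr3 (-0.09995) and Tacr1 (-0.2978) with voom, for Cp with voom (0.3762) and without the 3 libraries of few genes (0.4816), and for Nefm without these (-0.05319). With 1 library dropped S1pr3 ranged from -0.248 to 0.3089 and Cp from -0.3823 to 0.06686. The cause was not tested. What depth limits was not tested. Without the 3 libraries of few genes 206 genes met the criteria and none had an adjusted p under 0.05 in edgeR.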

Other observations

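Other genes also stood out, and were chosen after their values were seen. All but Hspa1a and Hspa1b are outside the lists. The immunoglobulin gene Jchain reached 687.4 TPM in PTE- mouse a8_11, where Iglc2 was at 516.3 TPM, against at most 3.25 and 7.07 TPM in sham. Mmp12, a macrophage elastase, reached 85.54 TPM in a8_14 and at most 0.32 TPM in sham. Tppp3, a tubulin-binding protein of ciliated cells, had a median of 393.7 TPM in PTE- and 103.3 TPM in sham (log2 fold change 1.82, SE 0.68, edgeR p = 0.0154), and its highest value, 1991.8 TPM, came from a8_11. The inducible heat shock genes Hspa1a and Hspa1b, near-identical copies, were at -1.86 and -1.72 (edgeR p of 0.234 and 0.266) with all libraries and at -3.34 and -3.33 (p of 0.00844 and 0.00786) without the 3 libraries of few genes. They were picked from the list of heat shock genes and chaperones. In the fit without the 3 libraries 11 of its 17 genes were above 0, with a median of 0.15. There 3 of the 17 had an edgeR p under 0.05 and were lower, and 1 was higher.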
